A study of Mus musculus with 6 samples.

Results

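Cholesterol is made from acetyl-CoA in a long chain of enzymatic steps, taken up with lipoproteins and exported from cells, and the genes of these processes were examined here in B16F10 cells depleted of OSGEP. The set was made of 28 genes of the 55487 listed in the count table. They were chosen by their place in the pathway, with earlier results of these data known, so shares of the set beside all genes are descriptions. The set held 19 enzymes of synthesis, 5 regulators of SREBP, 2 genes of uptake and intracellular transport (Stard4 and Mylip) and 2 sterol exporters (Abca1 and Abcg1). Of these, 27 were expressed highly enough to be tested, and Abcg1 was not.

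SREBPs are transcription factors held in the membrane of the endoplasmic reticulum. When sterols are scarce, SCAP carries them to the Golgi, where they are cleaved, and the released part enters the nucleus and activates the genes of cholesterol synthesis and uptake. When sterols are abundant, INSIG proteins retain SCAP in the endoplasmic reticulum, and oxysterols activate the nuclear receptor LXR, which drives the exporters of cholesterol.

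B16F10 is a mouse melanoma cell line. OSGEP, the enzyme that was depleted, acts within the KEOPS complex to form t6A, a modified adenosine next to the anticodon of tRNAs. Cells of the control group (shCtr, n = 3) carried a lentiviral scramble shRNA and cells of the depleted group (shOSGEP, n = 3) a lentiviral shRNA against OSGEP, the hairpin numbered 2 by the study. Each group came from 3 infections of the same line, so 1 hairpin stands for the depletion. The p-values below measure the spread between libraries, in which infection and library preparation cannot be told apart. PolyA RNA was sequenced, and values are given as CPM, the estimated counts scaled to library size after TMM normalization.

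Osgep was measured at 20.6, 58.6 and 21.8 CPM in shCtr against 4.28, 0.542 and 5.52 CPM in shOSGEP, in order of replicate number. Every shOSGEP library lay below every shCtr library, with a Log2FC of -3.29 (SE 0.876, unadjusted p = 0.00524 by edgeR). Depth ranged from 18915587 to 29487384 counts. shCtr replicate 2 stood apart from the other libraries: its scaling factor was 0.69 against 1.04 to 1.14, and in it transcripts under 40% GC were low (log2 deviation -3.01) and those over 60% GC were high (1.43). Its log2 CPM correlated at 0.75 to 0.873 with the other libraries. shOSGEP replicate 2 also stood apart, to a lesser degree, with correlations of 0.865 to 0.915. Libraries numbered 1 and 3 correlated at 0.953 to 0.986 with each other. The 7 melanocytic markers were above the floor of 3 counts in every library, and their summed level was 17700, 29600 and 17000 CPM in shCtr and 18100, 3550 and 15400 CPM in shOSGEP. Of 10 markers of blood, endothelial and epithelial cells, 6 or 7 were at 0 in each library, and the list summed to 1.95 to 4.57 CPM. What part the melanocytic level of shOSGEP replicate 2 has in the results was not tested.

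Most genes of the set were lower in shOSGEP, each by an amount that seldom exceeded the spread between libraries. Of the 27 tested, 22 had a negative Log2FC and 5 a positive one, with a median of -0.51 against -0.03 over all 12669 genes tested. No gene passed an adjusted p of 0.05 by edgeR, in the set or outside it (0.0% of genes tested, with 1 member and 256 genes at an unadjusted p under 0.05), and DESeq2 called 14 genes (0.111%), none of them a member. At the threshold of the study (a Log2FC beyond 0.5 with an unadjusted p under 0.05), 1 member was lower (3.70% of those tested, against 0.426% of all genes) and 0 were higher (against 1.59%). The libraries of the groups did not overlap for 3 members that were lower in shOSGEP (11.1%, against 2.87% of all genes) and for 1 that was higher (3.70%, against 3.49%). The lower ones were Acat2, Lss and Nsdhl, and the higher one was Abca1.

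Libraries with the same replicate number deviated together, clearly in numbers 1 and 2 and weakly in number 3 (correlations of 0.811, 0.557 and 0.196). Each shOSGEP library was therefore also set against the shCtr library of its number. A lower level in all 3 comparisons was found for 12 members (44.4%, against 17.2% of all genes tested), and a higher level in all 3 for 2 members (7.41%, against 17.6%), which were Abca1 and Ggps1. With the libraries of number 2 set aside, 17 members were lower in both remaining comparisons (63.0%, against 32.5%) and 4 were higher (14.8%, against 27.5%). The plot of fitted changes and same-numbered ratios shows that the ratios of numbers 1 and 3 lay close to each other for most members, while those of number 2 were spread widely on both sides of 0.

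**Figure D1:**
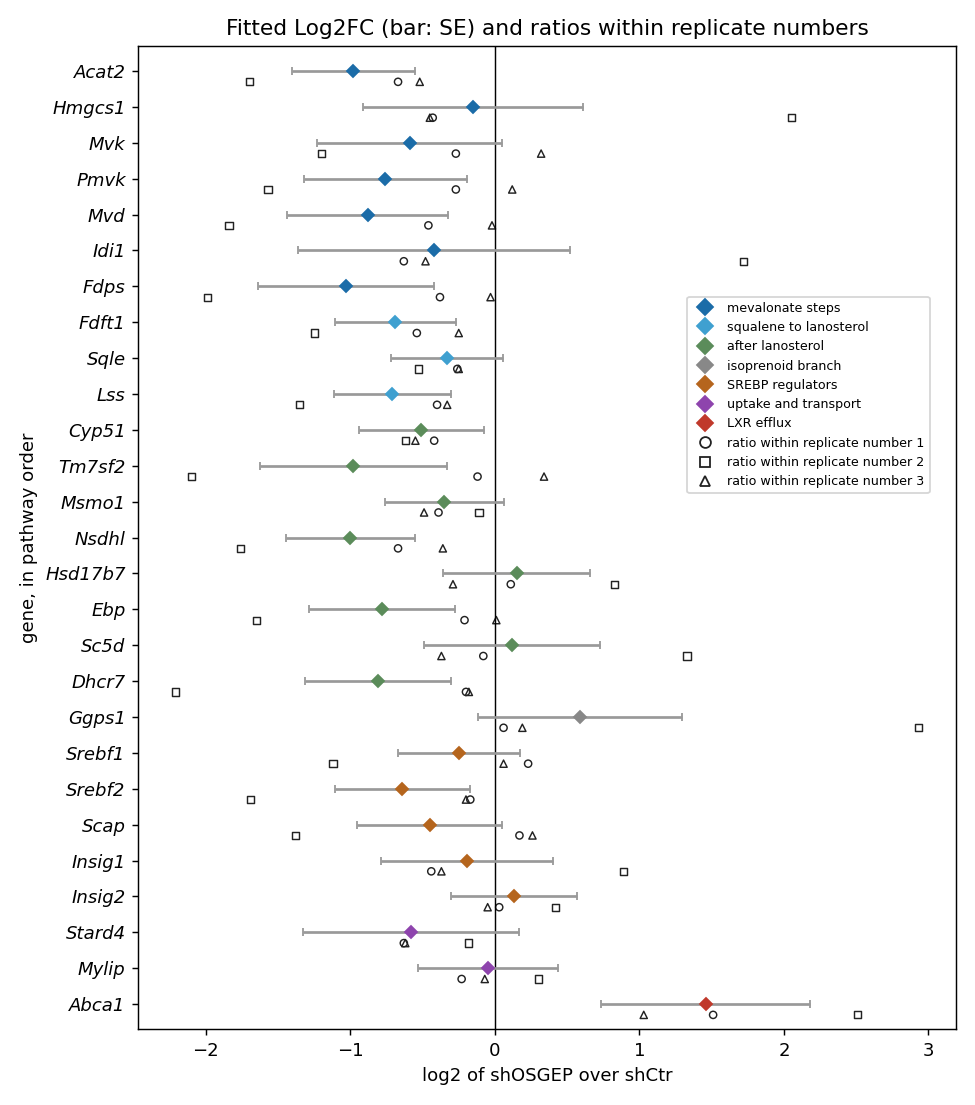
Log2 ratio of shOSGEP over shCtr (x axis) for the 27 tested genes in pathway order (y axis). Diamonds are the Log2FC fitted by edgeR with bars of 1 SE (n = 3 per group), coloured by role, and open symbols are the ratios within replicate numbers 1 (circles), 2 (squares) and 3 (triangles). In numbers 1 and 3, 17 genes lie below 0 in both and 4 above 0 in both, and the squares reach from -2.21 for Dhcr7 to 2.93 for Ggps1.

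Since SREBP-bound promoters are known to combine a sterol regulatory element with boxes for NF-Y and Sp1, the promoters are described before the levels. RefSeq windows of 300 bases (250 before and 50 after the start, GRCm38.p6) were found for 23 members, and not for Abcg1, Fdft1, Fdps, Sqle and Stard4. The letters searched, on both strands and each motif on its own, were TCACNCCAC for the sterol regulatory element, CACGTG for the E-box, CCAAT for the NF-Y box and GGGCGG for the GC box that Sp1 recognises, and none of these contains another. An NF-Y box was present in 20 of the 23 members (87.0%), against 41.1% of all 27025 genes with a window. A GC box was present in 21 (91.3%, against 38.2%), an E-box in 6 (26.1%, against 8.09%) and the sterol regulatory element in 1 (4.35%, against 1.44%), which was Hmgcs1. Genes with several windows were counted once if any window held the motif. The genes set beside the members were not matched to them for expression or for GC content of the window. A match is a description of the letters in the window, and other forms of the sterol regulatory element were not searched.

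Upstream sequences are shown for Hmgcs1, which alone of the 23 members held the letters searched for the sterol element. They are also shown for Nsdhl, an enzyme whose groups did not overlap, for a pair of regulators, and for Abca1, the exporter that was higher. Each runs 5′ to 3′ on the strand of the gene, from 150 bases before the RefSeq start up to the RefSeq start or, where the gene model begins earlier, up to the start of that model, with every match to the 4 motifs on either strand in capitals (ATTGG and CCGCCC are the NF-Y and GC boxes read on the other strand). The builds and positions are GRCm38.p6, chr13:119690201-119690350 and chrX:72918371-72918520 on the plus strand, chr5:28071262-28071362 and chr15:82147119-82147180 on the plus strand, and chr4:53159896-53160045 on the minus strand.
Hmgcs1: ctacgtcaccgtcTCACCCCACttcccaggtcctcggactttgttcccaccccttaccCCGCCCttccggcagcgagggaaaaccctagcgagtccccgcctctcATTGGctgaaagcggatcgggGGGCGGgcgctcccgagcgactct
Nsdhl: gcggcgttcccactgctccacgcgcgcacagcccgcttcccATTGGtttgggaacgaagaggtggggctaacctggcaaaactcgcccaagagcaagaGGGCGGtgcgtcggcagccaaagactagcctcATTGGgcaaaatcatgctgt
Insig1: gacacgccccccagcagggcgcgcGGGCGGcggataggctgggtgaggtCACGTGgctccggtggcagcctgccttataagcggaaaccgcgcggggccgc
Srebf2: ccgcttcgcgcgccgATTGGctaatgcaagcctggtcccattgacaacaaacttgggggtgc
Abca1: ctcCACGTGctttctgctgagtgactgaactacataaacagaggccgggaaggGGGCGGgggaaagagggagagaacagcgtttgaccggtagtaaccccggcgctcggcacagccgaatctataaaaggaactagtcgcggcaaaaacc
Hmgcs1 held the sterol element, an NF-Y box and a pair of GC boxes in this stretch, and Nsdhl held a pair of NF-Y boxes and a GC box. Srebf2 held an NF-Y box in its shorter stretch, and its window held 5 GC boxes outside that stretch. Insig1 and Abca1 each held an E-box and a GC box, and Abca1 held no NF-Y box anywhere in its window.

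The enzymes of synthesis were the largest group. Of the 19, 16 had a negative Log2FC, from -1.03 for Fdps to 0.59 for Ggps1, with a median of -0.69, beside -0.03 over all genes tested. Their summed level was 1540, 2480 and 1590 CPM in shCtr (1870 ± 529, SD, n = 3) and 1190, 965 and 1350 CPM in shOSGEP (1170 ± 193, SD, n = 3), so that each shOSGEP library lay below each shCtr library. In same-numbered comparisons, 10 enzymes were lower in all 3 and 1 was higher in all 3. The median ratio over the 19 enzymes was -0.38 in number 1, -1.25 in number 2 and -0.25 in number 3 on the log2 scale, beside -0.03, 0.11 and -0.01 over all genes, and without the libraries of number 2 the median fitted Log2FC was -0.19.

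The first steps of the pathway join acetyl-CoA units and turn them, by way of mevalonate, into isoprenoids of growing length. All 7 genes of these steps had a negative Log2FC (median -0.76). Acat2 (ENSMUSG00000023832, chromosome 17, 12942890 to 12960747, minus strand, GRCm38) encodes the cytosolic thiolase that starts the pathway. It had levels of 113, 216 and 154 CPM in shCtr and of 71.5, 66.1 and 107 CPM in shOSGEP. All shOSGEP libraries lay below all shCtr libraries, although the highest of the one and the lowest of the other were close. The Log2FC was -0.98 (SE 0.427, fold 0.507, unadjusted p = 0.0498, adjusted p = 1.00, by edgeR), and Acat2 was the 1 member past the threshold of the study. It no longer passed when any library other than shCtr replicate 1 was left out (unadjusted p from 0.0554 to 0.157). Of the words of 31 bases in its transcripts, 43.8% also occur in its paralogue Acat3, to which at most 1 count per library was assigned.

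Hmgcs1 (ENSMUSG00000093930, chromosome 13, 119690379 to 119708260, plus strand) encodes the cytosolic synthase of HMG-CoA, and its promoter is printed above. It was measured at 108, 9.73 and 83.4 CPM in shCtr against 80.1, 40.5 and 61.1 CPM in shOSGEP. In numbers 1 and 3 the ratio was -0.43 and -0.45 on the log2 scale, and in number 2, where shCtr was the lowest of the 6 libraries, it was 2.05. The fitted Log2FC was -0.15 (SE 0.761, unadjusted p = 0.850), and it was 0.34 with a replicate block. Idi1, the isomerase of isopentenyl diphosphate, had the same shape, with 101, 4.62 and 56.7 CPM in shCtr against 64.9, 15.4 and 40.5 CPM in shOSGEP. Its ratios were -0.63, 1.72 and -0.48 in order of number, and its fitted Log2FC was -0.42 (SE 0.942), or 0.15 with the block.

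Fdps makes farnesyl diphosphate, the last intermediate shared by sterols and the other isoprenoids. It had the lowest Log2FC of the set, -1.03 (SE 0.612, unadjusted p = 0.128), and here shCtr replicate 2 was the high library: the values were 192, 839 and 291 CPM in shCtr and 148, 211 and 286 CPM in shOSGEP. The ratio was -0.38 in number 1, -1.99 in number 2 and -0.03 in number 3. The mevalonate kinases Mvk and Pmvk and the decarboxylase Mvd followed the same course, with fitted Log2FC of -0.59, -0.76 and -0.88 and ratios of 0.32, 0.12 and -0.02 in number 3. Without the libraries of number 2, the Log2FC of Fdps was -0.15. Counts of Fdps are uncertain, since 27.9% of its words of 31 bases also occur in the overlapping gene Gm43738, as are those of Idi1 (18.8%, with Gm13502), although at most 11 counts per library were assigned to Gm43738 and at most 5 to Gm13502.

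The 3 enzymes that take farnesyl diphosphate through squalene to lanosterol, the first sterol, were lower in every same-numbered comparison. Fdft1, the squalene synthase, had levels of 67.0, 118 and 86.4 CPM in shCtr and of 46.0, 49.5 and 72.5 CPM in shOSGEP (Log2FC -0.69, SE 0.418). Sqle, the squalene epoxidase, was measured at 103, 78.2 and 86.1 CPM in shCtr against 86.1, 54.1 and 72.2 CPM in shOSGEP, and had the smallest SE of the set (Log2FC -0.33, SE 0.386). Lss, which closes the sterol rings, had levels of 55.4, 88.8 and 63.0 CPM in shCtr and of 42.0, 34.8 and 50.1 CPM in shOSGEP. Its groups did not overlap, and its Log2FC was -0.71 (SE 0.403, unadjusted p = 0.116). The ratios of Lss were -0.40, -1.35 and -0.33, those of Fdft1 -0.54, -1.25 and -0.25, and those of Sqle -0.26, -0.53 and -0.25 in order of number.

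The 8 enzymes after lanosterol remove methyl groups and move or reduce double bonds until cholesterol is formed, and 6 of them had a negative Log2FC (median -0.65). Nsdhl (ENSMUSG00000031349, chromosome X, 72918557 to 72958514, plus strand), a dehydrogenase of methyl group removal, was measured at 67.8, 142 and 73.2 CPM in shCtr against 42.5, 41.7 and 57.0 CPM in shOSGEP. The groups did not overlap, and the ratio was -0.67, -1.76 and -0.36 in order of number. The Log2FC was -1.0 (SE 0.446, unadjusted p = 0.0538). With the replicate block it was -0.93 (unadjusted p = 0.0482), which is past the threshold of the study.

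Cyp51, the lanosterol demethylase, and Msmo1, a methylsterol oxidase, act beside Nsdhl and were lower in all 3 numbers. Cyp51 had levels of 203, 116 and 156 CPM in shCtr and of 151, 75.4 and 106 CPM in shOSGEP, with ratios of -0.42, -0.62 and -0.55. Msmo1 had ratios of -0.39, -0.11 and -0.49. The groups overlapped for both, and the fitted Log2FC were -0.51 (SE 0.433) and -0.35 (SE 0.411). With offsets for GC content and transcript length they were -0.73 (unadjusted p = 0.0296) and -0.67 (unadjusted p = 0.0295), past the threshold of the study but not an adjusted p (0.850 for both).

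Dhcr7, the reductase of the last step, was measured at 117, 241 and 166 CPM in shCtr against 101, 52.0 and 147 CPM in shOSGEP (Log2FC -0.81, SE 0.504). The ratio was -0.20, -2.21 and -0.18, so most of the difference lay in number 2. The sterol isomerase Ebp had ratios of -0.21, -1.65 and 0.01. The sterol reductase Tm7sf2 had ratios of -0.12, -2.10 and 0.34, and it overlaps Vps51 on the same strand, with which it shares 12.9% of its words and which had more counts in every library (313 to 1727). Sc5d, a sterol desaturase, and Hsd17b7, a ketosteroid reductase, had a positive Log2FC of 0.12 (SE 0.610) and 0.15 (SE 0.508) with ratios of 1.33 and 0.83 in number 2, and with the offsets for GC content both were negative, at -0.15 and -0.19.

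Ggps1 makes geranylgeranyl diphosphate, which is used for protein prenylation and leaves the sterol branch. It had levels of 44.9, 4.92 and 26.3 CPM in shCtr and of 46.7, 38.1 and 30.1 CPM in shOSGEP. The value of 4.92 CPM in shCtr replicate 2 stood below the other 5, and the ratios were 0.06, 2.93 and 0.19. The Log2FC of 0.59 (SE 0.705) was 0.11 without the libraries of number 2.

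The plot of levels by library shows where shCtr replicate 2 stood for each gene. Its deviation from the mean of the other shCtr libraries ranged over the enzymes from -4.01 for Idi1 to 2.03 for Tm7sf2 (log2 CPM), and it followed the GC content of the transcript: the enzymes with the lowest GC contents, Ggps1 (40.1%), Idi1 (41.9%), Sc5d (42.9%) and Hmgcs1 (43.1%), had deviations of -2.78, -4.01, -1.80 and -3.28, while Mvd (59.0%) and Pmvk (57.0%) had deviations of 1.39 and 1.59. Across the 19 enzymes, which share libraries and are not independent, Spearman's rho was 0.84 between GC content and this deviation, -0.64 between GC content and the fitted Log2FC, and 0.35 between GC content and the Log2FC without the libraries of number 2. With offsets for GC content and length, 18 of the 19 enzymes were lower in shOSGEP and the median Log2FC was -0.57.

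**Figure D2:**
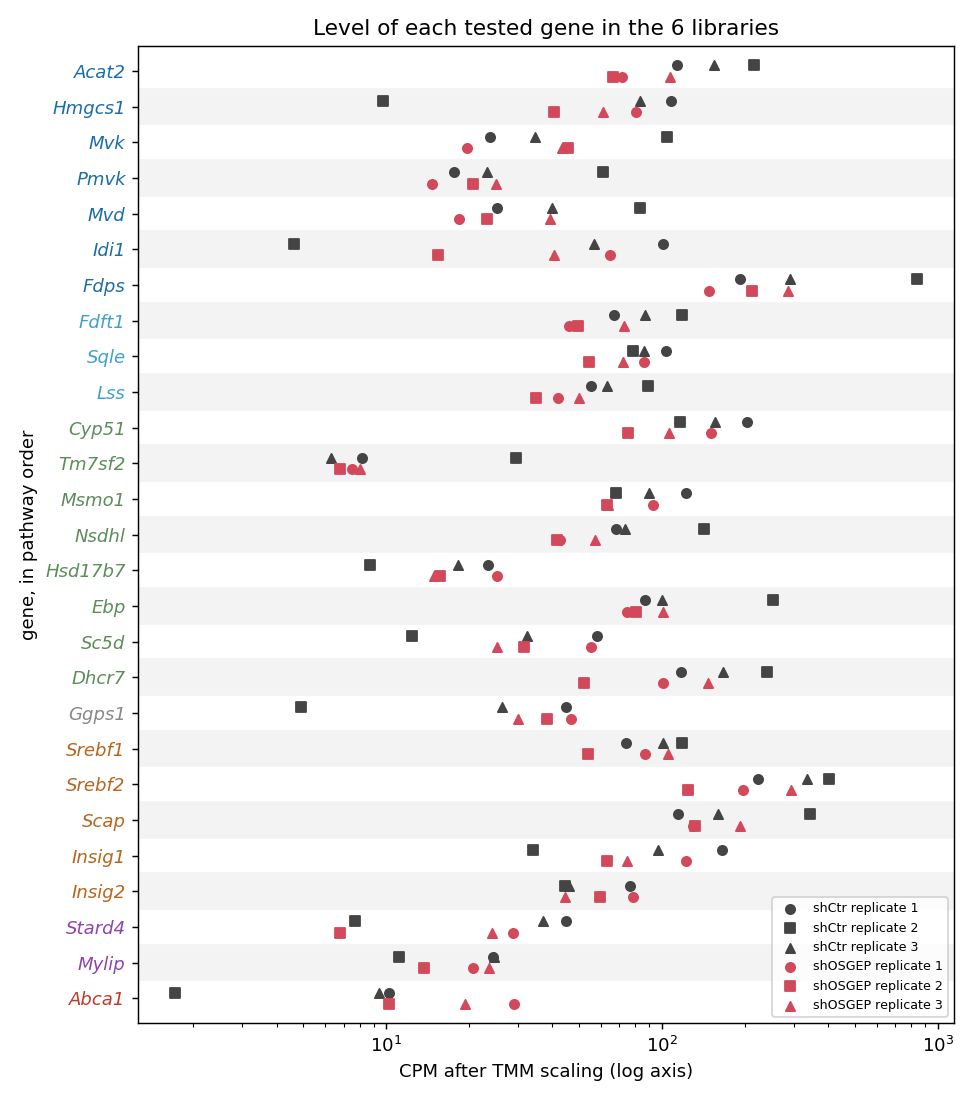
CPM after TMM scaling on a log axis (x) for the 27 tested genes (y), with 3 shCtr libraries in dark grey and 3 shOSGEP libraries in red, and circles, squares and triangles for replicates 1, 2 and 3. The dark square of shCtr replicate 2 lies far to the left for Idi1 (4.62 CPM) and Ggps1 (4.92 CPM) and far to the right for Fdps (839 CPM), while red lies left of dark throughout for Acat2, Lss and Nsdhl.

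**Figure D3:**
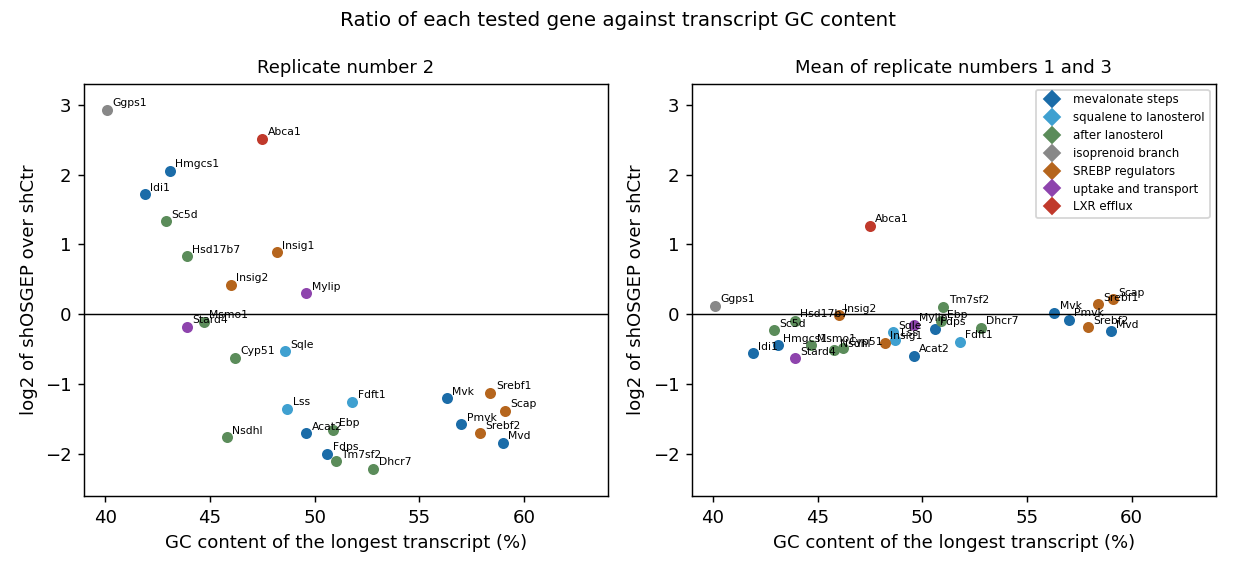
Log2 ratio of shOSGEP over shCtr (y) against the GC content of the longest transcript in percent (x) for the 27 tested genes, in replicate number 2 (left) and as the mean of numbers 1 and 3 (right), coloured by role. In number 2 the ratios run from 2.93 for Ggps1 at 40.1% GC down to -2.21 for Dhcr7 at 52.8% GC. In the mean of numbers 1 and 3 most points lie slightly below 0, and Abca1 stands above all others. Points above 0 include Scap (59.1% GC) and Srebf1 (58.4% GC) at the high end of the range and Ggps1 at the low end.

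Per kilobase of transcript, on the scale of mean CPM in shCtr, the levels spanned a wide range. Fdps was highest at 149 CPM per kb, followed by Ebp at 84.1, Acat2 at 71.6, Srebf2 at 63.0 and Dhcr7 at 62.0. The tested genes with the lowest levels were Tm7sf2 at 4.77, Hsd17b7 at 3.63 and Abca1 at 0.694 CPM per kb. In shOSGEP the order began with Fdps at 72.9 and Ebp at 48.9, followed by Srebf2 at 40.3, and Acat2 stood at 36.3. Neighbours in this order were not told apart, since the SD over the shCtr libraries was 348 CPM on a mean of 441 for Fdps and 92.5 on 147 for Ebp.

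The 5 regulators differed less than the enzymes: 4 had a negative Log2FC and the median was -0.25. Srebf2 (ENSMUSG00000022463, chromosome 15, 82147181 to 82205379, plus strand), the SREBP known mainly for genes of cholesterol synthesis, was measured at 222, 403 and 336 CPM in shCtr against 197, 124 and 293 CPM in shOSGEP (Log2FC -0.64, SE 0.467). Srebf1 (ENSMUSG00000020538, chromosome 11, 60199089 to 60222581, minus strand), known mainly for fatty acid synthesis, had levels of 74.2, 118 and 101 CPM in shCtr and of 87.0, 53.9 and 105 CPM in shOSGEP (Log2FC -0.25, SE 0.423). Both were lower in shOSGEP replicate 2 than in any other library. The ratios of Srebf2 were -0.17, -1.69 and -0.20, and those of Srebf1 0.23, -1.12 and 0.06.

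The balance between the SREBP genes was steadier than either level. The log2 ratio of Srebf1 over Srebf2 was -1.58, -1.77 and -1.73 in shCtr and -1.18, -1.20 and -1.47 in shOSGEP. Every shOSGEP library lay above every shCtr library, in 3 of 3 numbers, by 0.40, 0.57 and 0.26. The difference of means was 0.41 (SE 0.11). By the exact permutation test (two-sided) p was 0.1, the smallest that 3 libraries against 3 allow, and 0.15 after adjustment over the 3 pairs compared. This test did not use the replicate numbers. Counts were per gene, so the transcript forms of Srebf1 were not separated, and Rai1 overlaps Srebf1 on the opposite strand.

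Scap, the escort of SREBP, was measured at 114, 344 and 160 CPM in shCtr against 129, 132 and 191 CPM in shOSGEP. It was higher in numbers 1 and 3 (0.17 and 0.26) and lower in number 2 (-1.38), and the fitted Log2FC was -0.45 (SE 0.501). Insig1, which retains Scap and is itself a known target of SREBP, had levels of 165, 34.1 and 96.4 CPM in shCtr and of 122, 63.1 and 74.8 CPM in shOSGEP. Its ratios of -0.44, 0.89 and -0.37 had the same shape as those of Hmgcs1. Insig2, its paralogue, was measured at 76.6, 44.3 and 45.8 CPM in shCtr against 78.4, 59.4 and 44.3 CPM in shOSGEP, with ratios of 0.03, 0.42 and -0.05. The log2 ratio of Insig1 over Insig2 differed by -0.11 between the groups (SE 0.53, exact permutation p = 0.9, adjusted 0.9), being lower in numbers 1 and 3 (-0.47 and -0.32) and higher in number 2 (0.47).

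Over the 5 regulators the median ratio was 0.03 in number 1, -1.12 in number 2 and -0.05 in number 3, and without the libraries of number 2 the median Log2FC was 0.00. The enzymes thus had lower medians than the regulators in all 3 numbers; this difference between groups of genes was not tested.

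Stard4, which carries cholesterol between membranes within the cell, had levels of 44.7, 7.72 and 37.1 CPM in shCtr and of 28.8, 6.82 and 24.1 CPM in shOSGEP. Replicate 2 was low in both groups, so the groups overlapped, and the ratio was -0.63, -0.18 and -0.62 in order of number (fitted Log2FC -0.58, SE 0.747, unadjusted p = 0.457). Mylip, the ubiquitin ligase through which LXR limits uptake of lipoproteins, was measured at 24.3, 11.1 and 24.6 CPM in shCtr against 20.7, 13.7 and 23.5 CPM in shOSGEP. Its Log2FC was -0.05 (SE 0.484), and its ratios of -0.23, 0.30 and -0.07 lay on both sides of 0.

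Abca1 (ENSMUSG00000015243, chromosome 4, 53030787 to 53159895, minus strand) moves cholesterol and phospholipids onto apolipoproteins at the cell surface and is a known target of LXR. It had levels of 10.2, 1.72 and 9.45 CPM in shCtr and of 29.1, 10.2 and 19.3 CPM in shOSGEP. The groups did not overlap, but only just: the highest shCtr library and the lowest shOSGEP library, from different numbers, were both at 10.2 CPM after rounding, and with RLE scaling the groups overlapped. Within numbers, Abca1 was higher in 3 of 3 comparisons, by 1.51, 2.51 and 1.03 on the log2 scale. The Log2FC was 1.46 (SE 0.723, fold 2.74, unadjusted p = 0.0775, adjusted p = 1.00, by edgeR). The exact permutation p was 0.1, the smallest that 3 libraries against 3 allow when replicate numbers are not used.

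**Figure D4:**
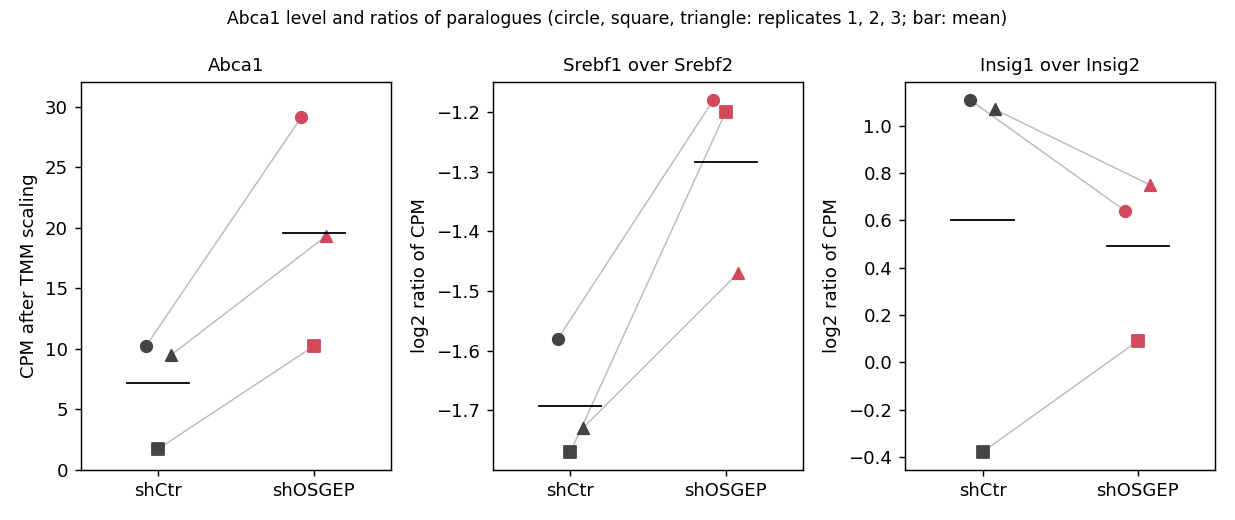
Abca1 in CPM after TMM scaling (left), and the log2 ratios of Srebf1 over Srebf2 (middle) and of Insig1 over Insig2 (right), for 3 shCtr and 3 shOSGEP libraries. Grey lines join libraries with the same replicate number and black bars are means; the Srebf1 over Srebf2 ratio is above -1.5 in all 3 shOSGEP libraries and below it in all 3 shCtr libraries, while the Insig1 over Insig2 lines cross.

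Abca1 was higher in shOSGEP in every alternative fit that was run. Leaving out shCtr replicate 2 alone lowered the Log2FC to 0.99 (unadjusted p = 0.0802). Without both libraries of number 2 the Log2FC was 1.30 (unadjusted p = 0.00690), past the threshold of the study. With the replicate block it was 1.68 (unadjusted p = 0.00829) and with offsets for GC content and length 1.44 (unadjusted p = 0.00269), both also past that threshold. The adjusted p was 0.741 and 0.850 in the latter fits. Abcg1, the other LXR-driven exporter of the set, had 1 count in shCtr replicate 1 and 0 counts in the other 5 libraries, under the floor of 3 counts (0.116 to 0.147 CPM), so no fold is given and a comparison of Abca1 with Abcg1 carried only the change of Abca1.

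Genes that work beside the set were counted in 6 further lists. No gene of these lists passed the threshold of the study by edgeR with all 6 libraries and neither block nor offsets. By limma-voom with quality weights per sample, 1 gene of the LXR axis and 1 of fatty acid synthesis did. With the replicate block 1 did, Pltp of the LXR axis. With offsets for GC content and length 3 did, Pltp, Gramd1b and Lrp8, the last also named after its values were seen. The lists held 8, 15, 7, 14, 3 and 12 tested genes. Over all 12669 genes tested, 256, 560, 373 and 634 passed in these fits, in the same order, so the calls in the lists are descriptions only. Of 8 genes that cleave, retain or degrade the SREBP machinery, 6 had a positive and 2 a negative Log2FC (median 0.37), with 0.90 (SE 0.621) for Erlin1 and -0.87 (SE 0.625) for Aup1, which both act in degradation at the endoplasmic reticulum. Of 15 tested genes of sterol transport and storage, 8 were negative and 7 positive (median -0.20). The groups did not overlap for 1 of the 15 in each direction, where 2.87% of all genes tested were lower and 3.49% higher without overlap. Gramd1b, which transfers sterol from the plasma membrane, was higher (Log2FC 0.80, SE 0.434, unadjusted p = 0.101). Lipa, the lysosomal lipase of cholesterol esters, named after its values were seen, was lower by a narrow margin (Log2FC -0.24, SE 0.362). Stard3, a sterol carrier of late endosomes, had -0.81 (SE 0.508).

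Of 7 tested genes of the LXR axis besides the members, 5 were negative (median -0.40), with -0.85 for both Nr1h2, which encodes an LXR, and its partner Rxrb. Without the libraries of number 2 these were 0.07 and -0.03. Pltp, a phospholipid transfer protein and known LXR target, is named after its values were seen. It was measured at 7.14, 39.7 and 14.0 CPM in shCtr against 26.6, 44.1 and 32.5 CPM in shOSGEP, higher in 3 of 3 numbers by 1.89, 0.15 and 1.21 on the log2 scale. Its groups overlapped through shCtr replicate 2, and the Log2FC was 0.76 (SE 0.642, unadjusted p = 0.267). It was 1.09 with the replicate block (unadjusted p = 0.0464), 1.26 with offsets for GC content and length (unadjusted p = 0.00556) and 1.49 without the libraries of number 2 (unadjusted p = 0.0106), each past the threshold of the study.

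Of 14 genes that use isoprenoids, 9 were negative and 5 positive (median -0.05), with -0.71 for Rce1 and -0.72 for Fntb, of protein prenylation. Of 3 redox partners of the sterol enzymes, 2 were negative (median -0.10), with -0.60 for Por and 0.21 for Cyb5b. Of 12 genes of fatty acid synthesis, 9 were negative and 3 positive (median -0.46), with -0.84 (SE 0.515) for the desaturase Fads2 and -0.78 (SE 0.487) for Acly, which supplies cytosolic acetyl-CoA.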

How the data were processed

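The study sequenced polyA RNA (paired reads of 100 bases) of 6 B16F10 libraries. Per its methods, reads were trimmed with TrimGalore, aligned to GRCm38 with STAR 2.6.1d and quantified with Salmon 1.4.0. The authors deposited estimated counts per Ensembl gene as whole numbers, with no normalization; the annotation release and strandedness were not given in the sources used here, so reads of genes that overlap on opposite strands cannot be told apart. Of 55487 genes, 33666 had no count.

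Groups and replicate numbers came from the labels. Genes were kept by filterByExpr (minimum count 10, minimum total 15), scaled by TMM and compared two-sided and without a block in edgeR 4.0.16 (R 4.3.3) by the quasi-likelihood F-test, adjusted by Benjamini-Hochberg over 12669 genes. The code was tested on simulated counts. Positions, lengths and GC contents of longest transcripts came from GENCODE M21 (GRCm38), and promoters from RefSeq (GRCm38.p6). Ratios of log2 CPM used a prior count of 2. Precision was limited by 3 libraries per group; the floor of 3 counts covers counting error only.

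Deviations of same-numbered libraries from their group means correlated at 0.811, 0.557 and 0.196 (limit 0.1). The numbers, which the labels share between groups, were therefore taken to pair the libraries. For number 3 the pairing is weak, since shCtr replicate 3 correlated at 0.491 with shOSGEP replicate 1. Blocked values are given where they change a call. The labels do not say what a number marks. The members and all gene lists were chosen with earlier results of these data known. Named genes were Osgep, the members and the 2 genes of each further list with the smallest p. Pltp, Lrp8 and Lipa were named in addition, after their values were seen. Alternatives were DESeq2 1.42.0, limma-voom (limma 3.58.1), other scalings and filters, a replicate block, offsets for GC content and length (splines of 5 degrees of freedom), and left-out libraries.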

Additional observations from a re-analysis of the deposited data

How the results depend on the processing

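The counts past a threshold moved with the method. Past an adjusted p of 0.05 there were 0 genes by edgeR, 14 by DESeq2 and 3 by limma-voom with quality weights per sample. With those weights and the replicate block (chosen after seeing the data), limma-voom called 1403 of 12669 genes tested and 10 of 27 members tested. That fit had 2 residual degrees of freedom and weights of 0.112 and 0.113 for replicate 2. At the threshold of the study, 256 genes passed by edgeR, 256 with RLE scaling and 287 with upper-quartile scaling. With at least 10 counts in every library 208 did, and 599 without a filter. There were 370 by DESeq2, 373 with the replicate block and 560 by limma-voom. Offsets for GC content and length gave 634, offsets and block 823, and limma-voom with the block 1442. With libraries left out, 67 to 453 passed. Of the members, 1 passed, against 3 by DESeq2 and by limma-voom, 2 with RLE scaling, 0 with upper-quartile scaling or at least 10 counts in every library, 3 with the replicate block (Acat2, Nsdhl and Abca1), 5 with offsets, 7 with offsets and block, 5 by limma-voom with the block, and 0 to 3 with libraries left out (3 without shCtr replicate 1, 0 without any other single library). Groups did not overlap for 4 members, and for 9 after the offsets, where the share also grew over all genes: 7 members were lower (25.9%, against 5.83% of genes tested) and 2 higher (7.41%, against 6.27%). The median of the SREBP regulators was -0.25, or 0.02 by limma-voom with the block and -0.48 to 0.00 with libraries left out. That of the synthesis enzymes was -0.69, and -0.96 to -0.19 with libraries left out. The difference of Insig1 against Insig2 was -0.11, or 0.04 with offsets and -0.60 to 0.15 with libraries left out, and that of Srebf1 against Srebf2 was 0.36 to 0.50.

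Single Log2FC that changed sign were, with the replicate block, Hmgcs1 (0.34), Idi1 (0.15) and Insig1 (0.02); by limma-voom, Tm7sf2 (0.19), Hsd17b7 (-0.06), Sc5d (-0.05) and Scap (0.06); with offsets, Hsd17b7 (-0.19), Sc5d (-0.15) and Insig2 (-0.10), and with offsets and block -0.18, -0.16 and -0.10; by limma-voom with the block, Sc5d (-0.13), Srebf1 (0.16) and Scap (0.17); and with upper-quartile scaling, which moved the median of all genes to 0.07, Mylip (0.03). With libraries left out the range was -0.66 to 0.38 for Hmgcs1, -0.99 to 0.31 for Mvk, -0.97 to 0.39 for Idi1, -1.40 to 0.10 for Tm7sf2, -0.16 to 0.46 for Hsd17b7, -0.29 to 0.73 for Sc5d, -0.48 to 0.14 for Srebf1, -0.82 to 0.23 for Scap, -0.60 to 0.41 for Insig1, -0.10 to 0.43 for Insig2 and -0.34 to 0.15 for Mylip. The cause of these changes was not tested.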
